A study of Mus musculus with 32 samples.

Results

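The genes described here are 42 interferon-stimulated and MHC class I genes of the mouse, out of 55487 genes in the deposited table. They were chosen by symbol and function, but with earlier results of these data known. All 42 had enough reads to be tested, among 14903 genes tested in all. RNA came from whole liver in 32 libraries of 4 groups: WT NASH, WT NASH-AA, FAAH S268D NASH and FAAH S268D NASH-AA, 8 libraries each. FAAH, fatty acid amide hydrolase, cleaves anandamide, N-acyl taurines and other fatty acid amides, and S268D names a substitution of 1 of its amino acids. Per the series text, the mice of every group had been kept for 28 weeks on an HFFC diet, given with or without ARA. The sample labels name the diets NASH and NASH-AA, and those names are used below. Neither sex, age at the start nor the way the substitution was introduced is stated in the labels, and no group on a standard diet is analysed here. The labels number the libraries of each group without saying that they came from separate animals, so p-values here reflect the spread between these libraries only, which may be technical.

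Type I interferons signal through the receptor IFNAR and type II interferon through IFNGR. Both receptors activate JAK kinases and STAT proteins: type I signalling forms a complex that includes STAT2 and IRF9 and binds the interferon-stimulated response element (ISRE), and type II signalling acts through the gamma-activated site (GAS). The induced genes include antiviral effectors, guanylate-binding proteins and immunity-related GTPases, and the machinery that loads peptides onto MHC class I molecules for display to CD8 T cells. In the liver, hepatocytes, endothelial cells and macrophages can all respond, and the level of these genes in whole tissue is a mixture of those cells. In such bulk samples, fewer cells of a type and less RNA per cell cannot be told apart.

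Stretches of 6 promoters are shown because they hold letters that match the core of the ISRE. They run 5′ to 3′ along the gene's own strand in RefSeq windows on GRCm38.p6, and capitals mark matches to the ISRE core, searched as GAAA, any 2 bases and GAAA and, for the other strand, as TTTC, any 2 bases and TTTC, with matches that share bases joined.
Gbp2: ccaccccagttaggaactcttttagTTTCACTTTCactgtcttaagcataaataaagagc
Gbp5: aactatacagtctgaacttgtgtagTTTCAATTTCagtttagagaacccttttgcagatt
Gbp3: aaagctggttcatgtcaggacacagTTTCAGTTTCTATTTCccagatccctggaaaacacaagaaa
Igtp: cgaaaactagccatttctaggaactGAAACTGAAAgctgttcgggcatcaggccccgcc
Isg15: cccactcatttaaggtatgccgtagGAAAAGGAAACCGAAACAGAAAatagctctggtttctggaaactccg
B2m: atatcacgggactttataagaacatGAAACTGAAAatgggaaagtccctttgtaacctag
The stretches lie at chr3:142620579-142620638 (plus strand) for Gbp2, chr3:142496744-142496803 (plus strand) for Gbp5, chr3:142559974-142560039 (plus strand) for Gbp3, chr11:58199497-58199555 (plus strand) for Igtp, chr4:156200850-156200921 (minus strand) for Isg15 and chr2:122147523-122147582 (plus strand) for B2m. The first 4 belong to genes that were lower in FAAH S268D than in WT livers on the NASH diet. Isg15 and B2m did not pass that test and were chosen for comparison after their values were seen. The Isg15 stretch holds 3 matches, Gbp3 2, and the others 1 each.

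Windows of 300 bases, from 250 before a RefSeq transcript start to 50 from it, were matched by symbol for 31 of the 42 genes. An ISRE core lay in 16 of the 31 (51.61%), against 3.99% of all 27025 genes with a window. A GAS match, TTCNNNGAA, which reads the same on both strands, lay in 9 of the 31 (29.03%), against 9.55% of all genes. ISRE cores were found for 6 of 7 GTPase genes and 5 of 7 antiviral effectors with a window, and for 0 of 4 genes of peptide supply. Among the 9 genes with a window that fell on the NASH diet in FAAH S268D livers, 4 held an ISRE core, as did 12 of the 22 that did not pass. A GAS match lay in 4 of those 9 and in 5 of those 22. A match describes letters in this window and is neither a binding site nor a cause.

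Total counts ran from 3851626 in FAAH S268D NASH replicate 1 to 34370179, the median being 22896702 and the next lowest 14743252. Levels are normalised CPM, counts scaled for the depth and composition of each library, and for a group the lowest, median and highest of its 8 libraries are given. Hepatocyte transcripts dominated, with 8 hepatocyte markers such as Alb and Ttr summing to between 50250 and 98280 CPM per library. Some libraries stood apart for the 42 genes. FAAH S268D NASH replicate 2 was the lowest of its group for 29 of the 42 genes. The shallow FAAH S268D NASH replicate 1 was the highest of its group for 21 of them. WT NASH replicate 1 was the highest of its group for 25, and FAAH S268D NASH-AA replicate 6 for 29.

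On the NASH diet, 12 of the 42 genes (28.6%) were lower in FAAH S268D than in WT livers and 0 were higher, by limma-voom at an adjusted p under 0.05. Over all genes tested, 6.29% were lower and 2.89% higher. The log2 fold changes of the 42 ran from -1.08 to 0.16 with a median of -0.33, 36 of them negative, beside a median of 0.00 over all genes. The genes that fell were 5 of 8 interferon-inducible GTPases (Gbp2, Gbp3, Gbp5, Igtp, Ifi47), 3 of 9 antiviral effectors (Ifit2, Oasl2, Mx1), 2 of 5 genes of peptide supply (Tapbp, Psmb8), the sensor Zbp1 and Parp14. None of the 4 transcription factors, the 2 genes of the ISG15 system, the 3 MHC class I chains or Nlrc5 passed (0 of each). An unadjusted p under 0.05 was found for 25 of the 42, beside 3827 of all 14903 genes tested. The 2 groups overlapped for every gene of the 42, while 0.107% of all genes lay wholly lower without overlap. The calls rest on a spread shared by all 4 groups: fitted on these 2 groups alone, 0 of 42 passed, Gbp2 coming closest with an adjusted p of 0.0561, and 0.472% of all genes passed. Replicates 2, 3 and 4 of FAAH S268D NASH stood apart in earlier results of these data, and without these 3 libraries 0 of 42 passed, with a median of -0.23, beside 0.432% of all genes.

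**Figure D1:**
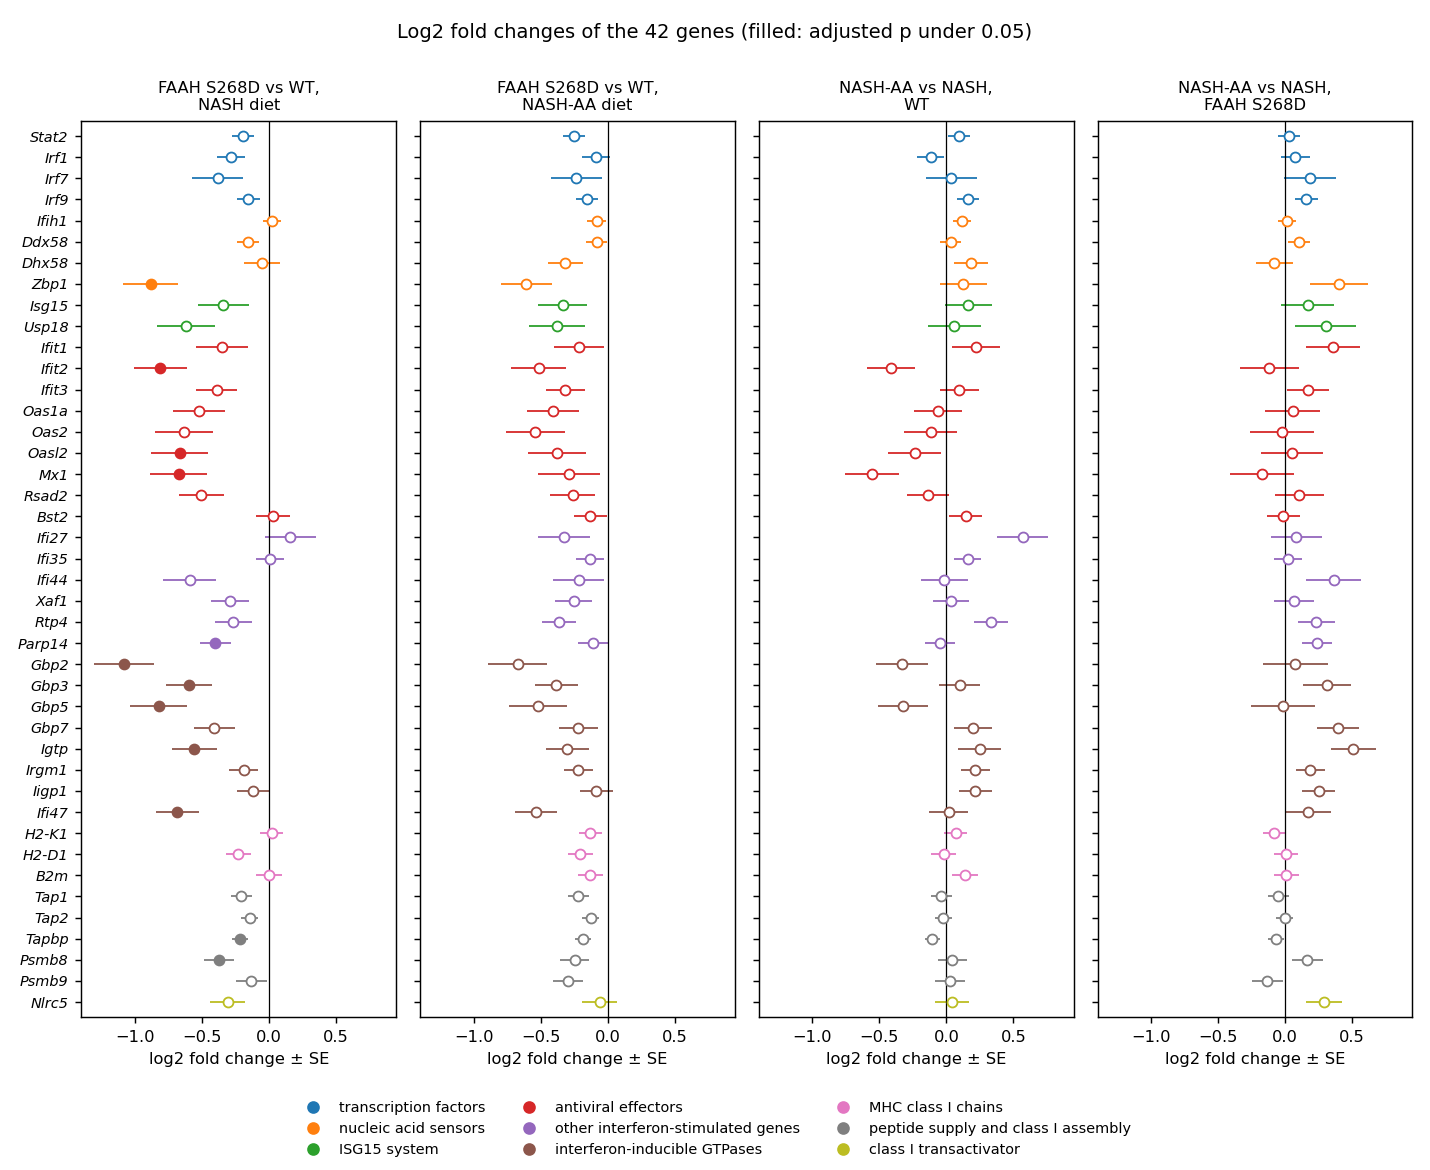
Log2 fold changes with SE (horizontal axis) of the 42 genes (vertical axis, ordered and coloured by role) in the 4 comparisons of 2 groups, from limma-voom over 32 libraries. Filled circles mark an adjusted p under 0.05. The 12 filled circles all stand in the first panel, left of 0, and all 42 circles of the second panel lie left of 0.

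The guanylate-binding and immunity-related GTPase families include proteins that attack the membranes around intracellular microbes, and they are induced above all by type II interferon. Gbp2 (chromosome 3, 142620602-142638008, plus strand, GRCm38) had 7.79, 15.8 and 24.2 CPM in WT NASH and 4.84, 6.02 and 12.03 in FAAH S268D NASH. All 8 FAAH S268D libraries lay below the WT median, replicates 1 to 4 close together at about 5 CPM and the other four higher, and WT replicate 5 lay within the mutant range. The difference was -1.08 ± 0.22 on the log2 scale (SE), a 2.11-fold lower level, with an adjusted p of 0.00461 in limma-voom. Ifi47 (chromosome 11, 49076587-49096974, plus strand) had 8.69, 13.8 and 16.02 CPM in WT NASH and 5.69, 8.10 and 12.9 in FAAH S268D NASH. It fell by 0.68 ± 0.16 on the log2 scale (adjusted p 0.00867, limma-voom), with all 8 mutant libraries below the WT median and WT replicate 5 again the lowest of its group. Some of its exon sequence is shared with the overlapping Olfr56 on the same strand.

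Gbp5, which promotes inflammasome assembly, was a scarce transcript, with a median of 3.77 CPM in WT NASH and 1.90 in FAAH S268D NASH and 6 counts in the shallowest library. It fell by 0.82 ± 0.21 (adjusted p 0.0141, limma-voom). Gbp3 fell by 0.60 ± 0.17 and Igtp, also called Irgm3, by 0.56 ± 0.17, with adjusted p-values of 0.0252 and 0.0335 in limma-voom. Igtp shares 15.9% of its 31-base words with Irgm2, whose exons overlap it. The remaining GTPases had log2 fold changes of -0.41 ± 0.15 for Gbp7, -0.19 ± 0.11 for Irgm1 and -0.12 ± 0.12 for Iigp1, none of which passed. Per kilobase of exon, Iigp1 was the most abundant GTPase transcript, at 30.1 CPM per kb in WT NASH, against 6.40 for Gbp2 and 0.56 for Gbp5.

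**Figure D2:**
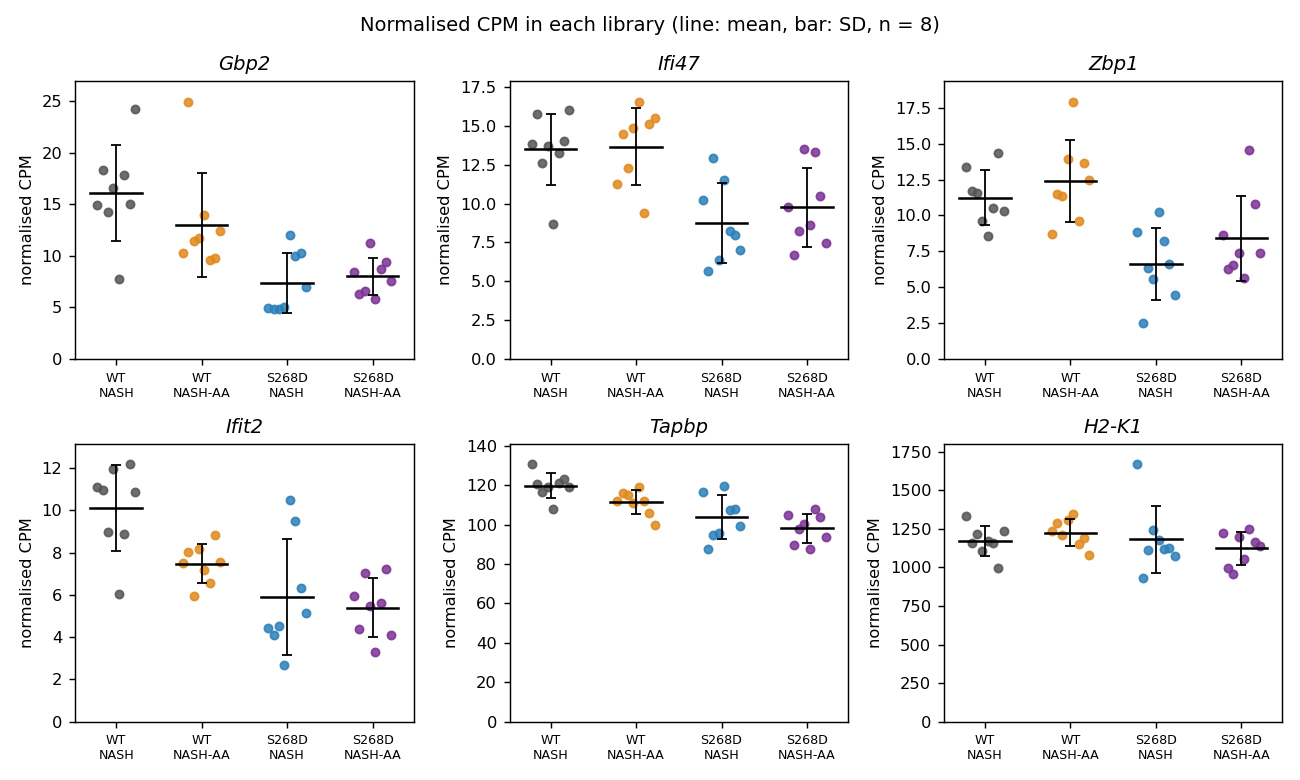
Normalised CPM (vertical axes, from 0) of 6 genes in each of the 32 libraries, by group (horizontal axis). Points are libraries in the order of their replicate number, the long line is the mean and the bar the SD of 8 libraries; Gbp2, Ifi47, Zbp1, Ifit2 and Tapbp fell in FAAH S268D (S268D on the axis) on the NASH diet, and H2-K1 did not pass.

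Among the sensors of foreign nucleic acid, Zbp1 senses Z-form nucleic acids and can start necroptosis. Its levels were 8.57, 11.03 and 14.3 CPM in WT NASH and 2.51, 6.48 and 10.3 in FAAH S268D NASH, with replicate 2 the lowest mutant library. All 8 mutant libraries lay below the WT median. Zbp1 fell by 0.88 ± 0.21 on the log2 scale (adjusted p 0.00829, limma-voom). The RNA helicases that sense viral RNA, Ifih1 (MDA5), Ddx58 (RIG-I) and Dhx58 (LGP2), did not pass, with log2 fold changes of 0.02 ± 0.07, -0.16 ± 0.08 and -0.05 ± 0.13. Ddx58 had 31.2, 34.5 and 39.9 CPM in WT NASH and 26.3, 30.6 and 37.1 in FAAH S268D NASH, where 4 of 8 libraries lay below the lowest WT one.

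The antiviral effectors block steps of viral replication. Ifit2, which restrains viral translation, had 6.06, 10.9 and 12.2 CPM in WT NASH and 2.67, 4.85 and 10.5 in FAAH S268D NASH. Mutant replicates 5 and 6 reached the WT range and the other six lay near or below its lowest library, replicate 5. Ifit2 fell by 0.81 ± 0.20 (adjusted p 0.0102, limma-voom). Mx1, a dynamin-like GTPase that traps viral nucleocapsids, had 2.06, 3.69 and 4.14 CPM in WT NASH and 1.04, 2.48 and 3.85 in FAAH S268D NASH, with 12 counts in the shallowest library. The mutant libraries of Mx1 were spread over most of the WT range and below it. It fell by 0.67 ± 0.21, and Oasl2, of the oligoadenylate synthetase family, by 0.67 ± 0.21, with adjusted p-values of 0.0410 and 0.0444 in limma-voom.

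Oasl2 kept its call in 13 of 32 fits that left out a library and Mx1 in 22. The other six effectors did not pass. Oas2 (-0.63 ± 0.22), Rsad2, which makes a chain-terminating nucleotide (-0.50 ± 0.17), Ifit1 (-0.35 ± 0.20) and Ifit3 (-0.39 ± 0.15) had negative values, as did Oas1a (-0.53 ± 0.19), and Bst2, the tetherin that holds virions on the cell surface, had 0.03 ± 0.12. Oas1a shares 68.7% of its 31-base words with Oas1g, and Ifit3 61.8% with Ifit3b, so reads of these copies may have been divided between them. Bst2 was the most abundant effector per kilobase, at 162.7 CPM per kb in WT NASH against 0.91 for Mx1.

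Isg15 is a ubiquitin-like protein attached to other proteins after interferon, and Usp18 removes it and also dampens IFNAR signalling. Isg15 had 7.17, 8.24 and 13.2 CPM in WT NASH and 3.08, 7.66 and 18.5 in FAAH S268D NASH, where it was highest in the shallow replicate 1 and lowest in replicate 2. The mutant group thus held both the lowest and the highest Isg15 level of the 2 groups. Its log2 fold change was -0.34 ± 0.19 (adjusted p 0.257, limma-voom). Usp18 had 10.2, 12.3 and 17.97 CPM in WT NASH and 3.42, 9.53 and 17.1 in FAAH S268D NASH, with a log2 fold change of -0.62 ± 0.22 (adjusted p 0.0672), and 5 of 8 mutant libraries lay below the lowest WT one.

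Of the other interferon-stimulated genes, Parp14, an ADP-ribosyltransferase, had 39.3, 48.2 and 55.8 CPM in WT NASH and 24.6, 38.2 and 46.6 in FAAH S268D NASH. All 8 mutant libraries lay below the WT median, and it fell by 0.40 ± 0.11 (adjusted p 0.0242, limma-voom). Ifi44 had 4.53, 5.80 and 7.98 CPM in WT NASH and 1.80, 3.89 and 6.65 in FAAH S268D NASH, lowest in replicate 2, and did not pass (-0.59 ± 0.20, adjusted p 0.0539). Xaf1, Rtp4, Ifi35 and Ifi27 had log2 fold changes of -0.29 ± 0.14, -0.27 ± 0.14, 0.01 ± 0.11 and 0.16 ± 0.19.

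None of the 4 transcription factors that carry the response passed. Irf1, which relays type II signals to class I genes, had 24.7, 40.6 and 48.3 CPM in WT NASH and 26.3, 31.7 and 40.1 in FAAH S268D NASH, and the mutant range lay inside the WT one. Its log2 fold change was -0.28 ± 0.11 (adjusted p 0.0822, limma-voom), and without WT NASH replicate 5, the lowest WT library, -0.38 with an adjusted p of 0.00397. Stat2 had 54.1, 58.5 and 64.99 CPM in WT NASH and 39.7, 53.2 and 58.7 in FAAH S268D NASH, a log2 fold change of -0.19 ± 0.08. Irf9, the DNA-binding partner of STAT2 on the ISRE, and Irf7, which amplifies type I interferon production, had -0.15 ± 0.08 and -0.38 ± 0.19.

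The MHC class I molecule is a heavy chain, here H2-K1 or H2-D1, bound to beta-2 microglobulin (B2m). These were by far the most abundant of the 42 transcripts per kilobase, with means of 398.8 CPM per kb for H2-K1, 302.0 for H2-D1 and 1790 for B2m in WT NASH. H2-K1 had 998, 1163 and 1336 CPM in WT NASH and 930.2, 1125 and 1668 in FAAH S268D NASH, the highest value being the shallow replicate 1. Its log2 fold change was 0.02 ± 0.09 and that of B2m 0.00 ± 0.10, with adjusted p-values of 0.910 and 0.994 in limma-voom. H2-D1 had 668, 792 and 864 CPM in WT NASH and 465, 659 and 843 in FAAH S268D NASH. The mutant libraries reached lower than the WT ones, with a log2 fold change of -0.23 ± 0.09 (adjusted p 0.108), and without the shallow replicate 1 it was -0.29 with an adjusted p of 0.0364. H2-D1 and H2-K1 share 26.7% and 22.8% of their 31-base words with other genes, so their levels are uncertain to that extent.

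Peptides for class I come from the immunoproteasome, enter the endoplasmic reticulum through TAP1 and TAP2 and are loaded with the help of tapasin (Tapbp). Tapbp (chromosome 17, 33915899-33929292, plus strand) had 108, 119.9 and 131 CPM in WT NASH and 87.4, 103 and 119.6 in FAAH S268D NASH, and all 8 mutant libraries lay below the WT median. The step was small: Tapbp fell by 0.22 ± 0.06 (adjusted p 0.0180, limma-voom), and 5 of 8 mutant libraries lay below the lowest WT one. Psmb8, an immunoproteasome subunit, had 26.3, 37.9 and 42.02 CPM in WT NASH and 21.7, 26.7 and 43.4 in FAAH S268D NASH, where replicate 1 was higher than every WT library. It fell by 0.37 ± 0.11 (adjusted p 0.0339, limma-voom). Its partner Psmb9 had -0.13 ± 0.11, Tap1 -0.21 ± 0.08 and Tap2 -0.15 ± 0.07, and none of them passed. Psmb9 and Tap1 overlap on opposite strands, and whether the counting used strand is not given in the sources used here. Nlrc5, the transactivator of class I genes, had 20.7, 25.8 and 31.6 CPM in WT NASH and 13.4, 21.04 and 27.7 in FAAH S268D NASH, with a log2 fold change of -0.31 ± 0.13 (adjusted p 0.135) and overlapping groups.

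On the NASH-AA diet, 0 of the 42 genes passed between the genotypes by limma-voom, beside 0.658% of all genes, although all 42 log2 fold changes were negative, with a median of -0.25 beside 0.00 over all genes. At an unadjusted p under 0.05 there were 18, beside 2317 of all 14903 genes tested. By limma-trend 0 passed, and sample quality weights gave 5 lower (Stat2, Zbp1, Gbp2, Ifi47 and Tapbp). Fitted on these 2 groups alone, Ifit2, Gbp2 and Ifi47 passed, with adjusted p-values of 0.0463, 0.0417 and 0.0452 in limma-voom. The shares of all genes passing with quality weights and on these 2 groups alone are not given here. Those counts are therefore not read as particular to the 42 genes. Ifi47 had 9.37, 14.7 and 16.6 CPM in WT NASH-AA and 6.72, 9.18 and 13.5 in FAAH S268D NASH-AA, a log2 fold change of -0.53 ± 0.16 and the smallest unadjusted p of the 42 (adjusted p 0.112, limma-voom). Gbp2 had 9.62, 11.6 and 24.96 and 5.78, 7.97 and 11.2 CPM, a log2 fold change of -0.67 ± 0.22, with WT NASH-AA replicate 2 far above the rest of its group. Zbp1 had -0.61 ± 0.19. Whether the genotype difference depended on the diet was tested as an interaction: 0 of 42 genes and 0.0 percent of all genes passed. The smallest adjusted p of the 42 was 0.906 in limma-voom. An unadjusted p under 0.05 was found for 0 of the 42, beside 627 of all 14903 genes tested. The 12 calls on one diet and 0 on the other do not show that the genotype difference depended on the diet.

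**Figure D3:**
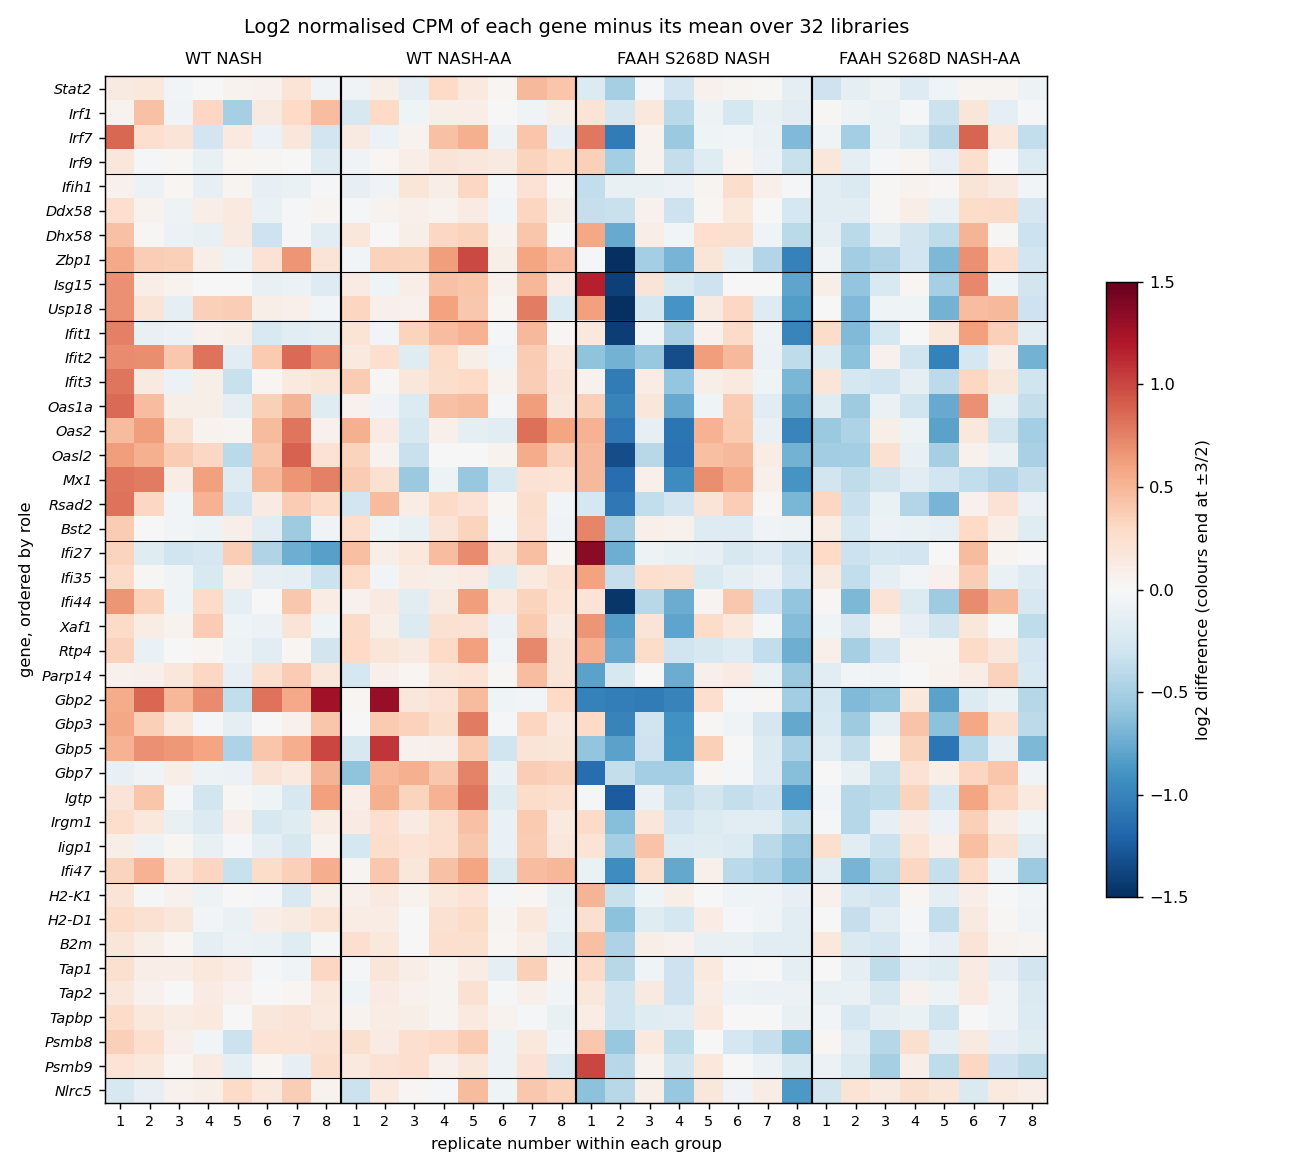
Log2 normalised CPM of each of the 42 genes (vertical axis, by role) minus its mean over 32 libraries, for each library (horizontal axis, by group and replicate number), with red above and blue below the mean and colours ending at 3/2 either way. In FAAH S268D NASH, replicates 2, 4 and 8 are blue for most genes and replicate 1 is red for Isg15, Ifi27 and Psmb9, while the class I chains stay pale.

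Between the diets, 0 of the 42 genes passed in WT livers by limma-voom, beside 4.41% of all genes, and 0 in FAAH S268D livers, beside 0.0939%. In WT, 27 of 42 log2 fold changes (NASH-AA against NASH) were positive, with a median of 0.04. An unadjusted p under 0.05 was found for 5 of the 42, beside 3636 of all 14903 genes tested. In FAAH S268D, 31 were positive, with a median of 0.08, and 5 had an unadjusted p under 0.05, beside 1843 of all 14903 genes. Both genotype comparisons and both diet comparisons share groups, so they are not independent of each other.

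In WT livers the values closest to the threshold pointed both ways. Ifi27, a mitochondrial interferon-stimulated protein, had 51.95, 75.4 and 118 CPM in WT NASH and 93.6, 114 and 149 in WT NASH-AA. WT NASH replicates 1 and 5 reached the NASH-AA range and the other six did not exceed its lowest library. Its log2 fold change was 0.57 ± 0.19 (adjusted p 0.0713, limma-voom). On these 2 groups alone Ifi27 passed, with an adjusted p of 0.0401 in limma-voom, as did 7.59% of all genes. Mx1 had 1.57, 2.48 and 3.08 CPM in WT NASH-AA, lower than in WT NASH for most libraries (-0.56 ± 0.20, adjusted p 0.0905). Rtp4, a chaperone of receptor transport, had 14.7, 17.3 and 22.6 CPM in WT NASH and 17.3, 21.1 and 29.3 in WT NASH-AA (0.33 ± 0.13, adjusted p 0.105).

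Ifit2 (-0.42 ± 0.18) and Irgm1 (0.22 ± 0.11) were the remaining genes with an unadjusted p under 0.05 in WT. Leaving out WT NASH replicate 5 gave 3 calls (Ifi27 higher, Ifit2 and Mx1 lower), and the share of all genes in that fit is not given here. Leaving out WT NASH replicate 1 or FAAH S268D NASH replicate 1 gave 1 each (Ifi27), beside 4.24% and 4.88% of all genes. By limma-trend 0 passed. Quality weights gave 7 of the 42, beside 25.2% of all genes. Of these 7, 3 were higher (Irf9, Ifi27, Rtp4) and 4 lower (Ifit2, Mx1, Gbp2, Gbp5). The values of Irf9 (0.16 ± 0.08), Ifih1 (0.12 ± 0.07), Dhx58 (0.18 ± 0.13), Iigp1 (0.22 ± 0.12) and B2m (0.14 ± 0.10) were positive and those of Irf1 (-0.12 ± 0.10), Tapbp (-0.10 ± 0.06) and Tap1 (-0.04 ± 0.08) negative. In FAAH S268D livers Igtp had the smallest p (0.51 ± 0.17, adjusted p 0.211, limma-voom), at 12.5, 23.5 and 29.3 CPM on NASH and 22.1, 30.9 and 44.8 on NASH-AA. The NASH-AA libraries of Igtp reached higher and the lower ones lay inside the NASH range.

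Upstream of these genes, the interferons themselves were at or near the limit of detection. Ifna1, Ifna2, Ifna4, Ifnl2, Ifnl3 and Ifne had 0 counts in all 32 libraries, Ifnb1 had 1 count in 1 library, and Ifng had at most 5 counts in a library and 0 in 14 of them, so none of the 8 could be tested. A count of 0 allows up to 3 counts in a library, which is 0.779 CPM in the shallowest and 0.0873 CPM in the deepest. Of a list of other pathway genes, 97 were tested, and on the NASH diet 32 of these (33.0%) were lower in FAAH S268D and 0 higher, their median log2 fold change being -0.24. Fitted on these 2 groups alone 2 of 97 passed, and without FAAH S268D NASH replicates 2, 3 and 4 1 of 98. The type II receptor chains Ifngr1 (-0.46 ± 0.10) and Ifngr2 (-0.29 ± 0.09) fell, with adjusted p-values of 0.00652 and 0.0379 in limma-voom. The type I receptor chains Ifnar1 (-0.06 ± 0.06) and Ifnar2 (-0.03 ± 0.06) did not pass.

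The 6 of those 97 with the smallest p in that comparison were Samhd1, a dNTP hydrolase that starves viral replication (-0.52 ± 0.09), Cd274, which encodes PD-L1 (-0.80 ± 0.15), the phosphatase Ptpn6 (-0.39 ± 0.08), the IL-10 and interferon lambda receptor chain Il10rb (-0.61 ± 0.13), Ifngr1 and the schlafen Slfn5 (-0.65 ± 0.14). Of 13 other class I genes, 2 fell, H2-T24 (-0.47 ± 0.14) and H2-Q4 (-0.29 ± 0.09), and of 8 other genes of the class I pathway 0 passed. On NASH-AA 1 of the 97 fell, Ifitm1, which hinders virus entry (-0.53 ± 0.13, adjusted p 0.0400, limma-voom). On the 2 NASH-AA groups alone 13 of 96 were lower, 14 of 97 with quality weights and 3 of 98 without FAAH S268D NASH replicates 2, 3 and 4. The shares of all genes in these NASH-AA fits are not given here. In WT livers 7 of the 97 were lower on NASH-AA and 1 higher. The 6 of these with the smallest p were H2-Q2 (-1.58 ± 0.37), the DNA sensor Tlr9 (-0.92 ± 0.23), Il10rb (-0.48 ± 0.13), Ptpn6 (-0.28 ± 0.08), H2-Q1 (-1.50 ± 0.42) and Epsti1 (-0.65 ± 0.19). Those WT counts became 0 and 0 with a replicate block, 24 and 7 with quality weights and 10 and 2 without the same 3 libraries. Of all genes, 0.114%, 25.2% and 9.76% passed in these settings. In FAAH S268D livers 0 of the 97 passed between the diets by limma-voom. An unadjusted p under 0.05 was found for 11 of the 97, beside 1843 of all 14903 genes tested. Both with quality weights and without FAAH S268D NASH replicates 2, 3 and 4, 4 were higher and 3 lower.

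Markers of immune cells moved with the same comparison. On the NASH diet, 9 of 10 monocyte and macrophage markers were lower in FAAH S268D, with a median log2 fold change of -0.95, and 5 of 8 T and NK cell markers tested, as were 2 of 5 dendritic cell, 2 of 3 neutrophil and 1 of 5 Kupffer cell markers. The 10 monocyte and macrophage markers summed to between 421 and 1042 CPM in WT NASH and 272 and 576 in FAAH S268D NASH, and none was at 0 in any library. Fitted on these 2 groups alone, or without FAAH S268D NASH replicates 2, 3 and 4, 0 of the 10 passed, with medians of -0.95 and -0.67. On the 2 groups alone 1 of 7 T and NK cell markers passed and 0 of the dendritic, neutrophil and Kupffer cell markers, and without those 3 libraries 0 of any of them. The T and NK cell markers summed to between 6.39 and 14.6 CPM and 4.64 and 8.85 CPM, with Ncr1 at 0 in 6 of the 32 libraries, Gzma in 5 and Cd3d in 1. B cell (0 of 4), plasmacytoid dendritic cell (0 of 2) and sinusoidal endothelial (0 of 5) markers did not pass, and 2 of 8 hepatocyte markers were higher. Bst2, itself among the 42 genes, was 1 of those 2 plasmacytoid dendritic cell markers, so that list is not separate from the 42. The part of these cells in the levels of the 42 genes was not tested.

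Between the diets in WT, 2 of 10 monocyte and macrophage markers were lower on NASH-AA and all 10 were negative, with a median of -0.62, while the 42 genes had a median of 0.04. The count of 2 became 7 without FAAH S268D NASH replicates 2, 3 and 4 and 0 with a replicate block. The other immune marker groups had medians from -0.54 for dendritic cells and -0.44 for T and NK cells to -0.02 for Kupffer cells and 0.02 for B cells. Plasmacytoid dendritic cells had 0.20, from 2 markers of which 1 was Bst2. Between genotypes on NASH-AA, 0 of the 10 passed by limma-voom, but all 10 were negative with an unadjusted p under 0.05, the median being -0.70. Such a p was found for 2317 of all 14903 genes tested. For 2 of the 10 markers the groups did not overlap, while 62 of all 14903 genes lay wholly lower without overlap. On these 2 groups alone 6 of 10 passed, and 7 with quality weights, the shares of all genes in these fits not being given here. On the NASH diet, the shallow FAAH S268D NASH replicate 1 had both the highest mean level of the 42 genes in its group and the highest of the T and NK cell markers. These markers summed to at most 8.85 CPM in that group, so few counts stand behind that level. Replicate 4 had the lowest level of the monocyte and macrophage and of the T and NK cell markers, while replicate 2 had the lowest of the 42 genes.

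**Figure D4:**
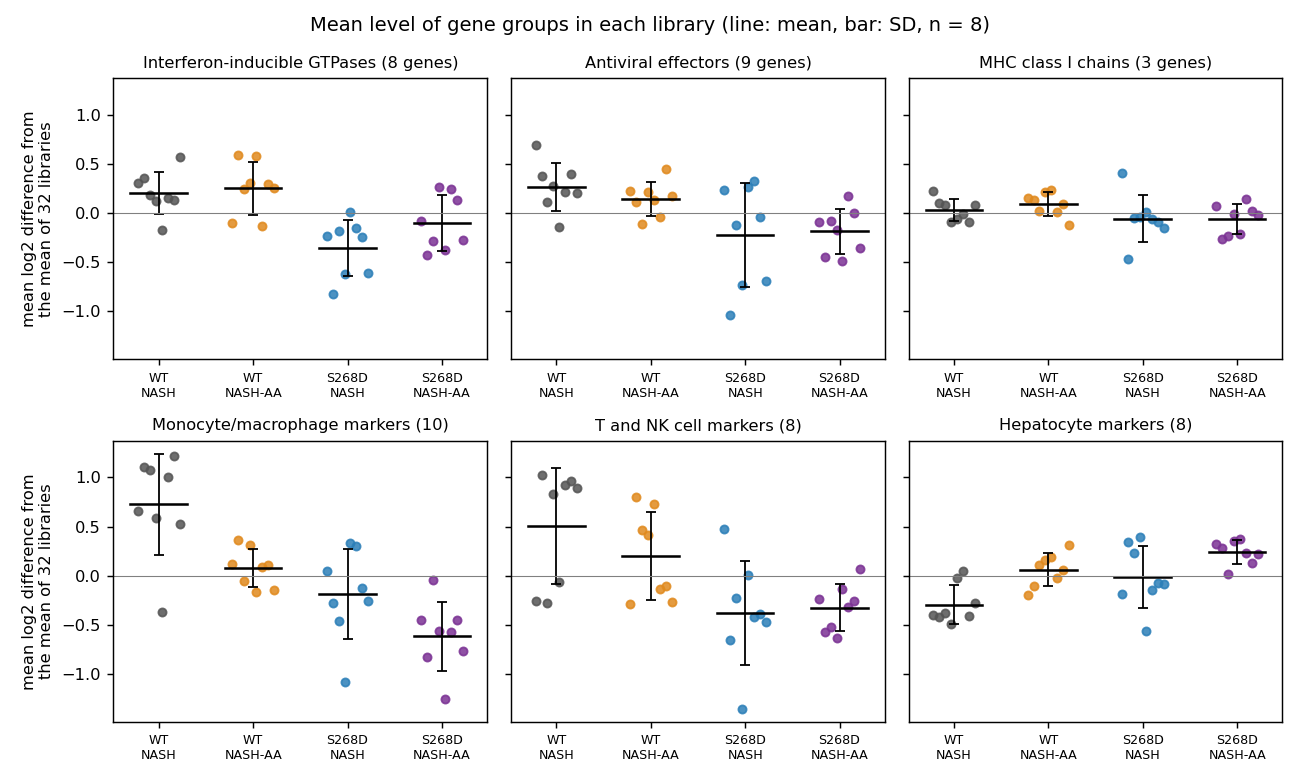
Mean log2 difference from the mean of 32 libraries (vertical axes) of 3 role groups of the 42 genes and 3 groups of cell type markers, for each library by group (horizontal axis; S268D stands for FAAH S268D), with the mean as a line and the SD of 8 libraries as a bar. The GTPases and the monocyte and macrophage markers lie lower in FAAH S268D NASH than in WT NASH, the class I chains overlap, and the monocyte and macrophage markers lie lower in WT NASH-AA than in WT NASH.

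Libraries of FAAH S268D NASH were spread more widely than those of the other groups, which was not tested. The mean log2 difference of the 42 genes from their mean over all libraries ran from -0.06 to 0.39 in WT NASH, from -0.04 to 0.34 in WT NASH-AA, from -0.78 to 0.20 in FAAH S268D NASH and from -0.35 to 0.26 in FAAH S268D NASH-AA. In FAAH S268D NASH, replicates 2, 8 and 4 stood at -0.78, -0.51 and -0.48, and the other five between -0.12 and 0.20. With each library left out in turn, between 4 and 19 of the 42 genes passed on the NASH diet: 4 without FAAH S268D NASH replicate 4, 5 without replicate 2, 7 without replicate 8, 19 without replicate 5 and 7 without WT NASH replicate 2. Gbp2, Zbp1, Ifit2 and Ifi47 kept their call in all 32 of these fits. Library names carry a number from 1 to 32, and the groups were split between its ranges. Within numbers 1 to 16 alone 4 genes passed (Gbp2, Zbp1, Ifit2 and Gbp5) with a median of -0.31, and within 17 to 32 alone, where FAAH S268D NASH has 3 libraries, 0 passed with a median of -0.21. The shares of all genes passing within each range and with each library left out are not given here. The changes in these counts are therefore not read as particular to the 42 genes.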

How the data were processed

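Libraries of polyA RNA were made with a Tecan Universal Plus mRNA-seq kit, per the labels' protocols. The submitters' processing notes name STAR 2.7.10, UMI-tools 1.1.2, Trim Galore 0.6.7 and the build GRCm38, and the counting program is not given in the sources used here. Gene counts were deposited as 1 unscaled table of estimated counts from the authors, recorded here as a unit other than counts because 52450 cells had been altered by a spreadsheet and did not read as plain numbers. Cells turned into clock times, day fractions or grouped digits were restored by rule and rounded to whole numbers. Of the 1344 cells of the 42 genes, 3 had 2 possible originals, of which the one nearer the scaled median of that gene was used.

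CPM were scaled by TMM factors (own code, trimming 30% of log ratios and 5% of mean levels). A gene was tested if it had 15 counts or more in total and, in 8 or more libraries, the CPM that 10 counts make at median depth. The test was limma-voom (limma 3.58.1, R 4.3.3) with a prior count of 0.5, 1 mean per group over 32 libraries, 5 contrasts and Benjamini-Hochberg adjusted p under 0.05 over all genes tested. The fit was also run on simulated data in which all genes and groups were given the same spread. That setting lacks the wider spread seen in FAAH S268D NASH, so it does not bear on the calls made there. Depth limits the genes of few counts most, above all in the shallowest library.

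The 42 genes, their roles, the other lists and the alternatives were chosen with earlier results of these data known. In each role the 2 genes with the smallest p between genotypes on NASH and the 2 between diets in WT were described in full, and of the other pathway genes up to 6 per contrast and a fixed set of interferon and receptor genes, 1 result not being reported here. Gene positions come from GENCODE on GRCm38, CPM per kb from its exon lengths and shared 31-base words from its transcripts. Promoter sequences come from RefSeq on GRCm38.p6. Alternatives were another normalization, other filters, blocks for replicate number and library number range, each range alone, 2 groups alone, quality weights, limma-trend, the other reading of ambiguous cells and libraries left out.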

Additional observations from a re-analysis of the deposited data

Results flagged for a closer look

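In 208 groups of 8 values (each gene and role score in each group), 23 held 1 library whose gap to its nearest neighbour exceeded Dixon's 95% critical value. A rate of about 1 in 20 by chance holds for independent, normally distributed values. These were unlogged CPM, and role scores of the same genes and libraries, so the 23 cannot be set against that rate. WT NASH replicate 1 was the highest of its group for Irf7 (107.1 CPM, the next 69.8), Isg15 (13.2 CPM), Ifit1 (15.9 CPM, the next 9.97), Ifit3 (38.1 CPM) and Rtp4 (22.6 CPM), and for the mean log2 difference of the ISG15 system (0.69). Its Gbp2 level was below the median of its group.

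The shallow FAAH S268D NASH replicate 1 was the highest of its group for Irf7 (101.8 CPM), Isg15 (18.5 CPM, the next 9.44), Bst2 (248.9 CPM), Ifi27 (232.8 CPM, the next 86.9), H2-K1 (1668 CPM) and Psmb9 (43.7 CPM, the next 24.3). FAAH S268D NASH-AA replicate 6 was the highest of its group for Irf7 (107.7 CPM, the next 65.5), Dhx58 (23.3 CPM), Isg15 (13.6 CPM) and Oas1a (12.5 CPM), and for the mean log2 difference of the transcription factors (0.34).

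In WT NASH-AA, replicate 2 was the highest for Gbp2 (24.96 CPM) and Gbp5 (5.36 CPM), replicate 5 for Gbp3 (19.3 CPM) and replicate 7 for Ddx58 (41.6 CPM). In WT NASH, replicate 8 was the highest for Gbp7 (21.01 CPM), and replicate 5 the lowest for Ifi47 (8.69 CPM, the next 12.6). No gene of the 42 passed the interaction test (0 in limma-voom, 0 at an unadjusted p under 0.05 and 0 in limma-trend).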

How the results depend on the processing

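Counts of the 42 genes past the threshold on the NASH diet between genotypes, 12 in limma-voom, were 8 to 12 under median-of-ratios size factors, both other filters, the block for the library number range, quality weights, limma-trend and the other reading of ambiguous cells. They were 4 within library numbers 1 to 16 alone, 0 within 17 to 32 alone, 0 on the 2 groups alone and 0 without FAAH S268D NASH replicates 2, 3 and 4 together, and 4 to 19 with 1 library left out. Splitting the ranges or fitting 2 groups uses fewer libraries, and why these counts differ was not tested. The shares of all genes within each range and with 1 library left out are not given here for this comparison. Between genotypes on NASH-AA, 0 became 3 on the 2 groups alone and 5 with quality weights, and stayed 0 with 1 library left out. The shares of all genes in these NASH-AA fits are not given here. Between diets in WT, 0 became 1 on the 2 groups alone (all genes 7.59%), 7 with quality weights (all genes 25.2%) and 1 without the 3 libraries together (all genes 9.76%). With 1 library left out, 0 to 3 passed there. The share of all genes moved as well, for example 0.427% without WT NASH replicate 2 and 7.01% without FAAH S268D NASH replicate 5. Between diets in FAAH S268D, 0 became 1 within numbers 17 to 32 alone and 1 with quality weights. The interaction gave 0 in every setting in which it was fitted, which leaves out 2 groups alone, where it cannot be. With a replicate block, 7 genes passed on the NASH diet between genotypes and 0 in the other contrasts. Same-numbered libraries did not deviate together there (correlations from -0.379 to 0.332, over 0.1 in 3 of 8 pairs, 3 of 8 correlating best with their own number), so the numbers are not taken as pairs. Over single genes and settings, 9036 values stayed on their side of the threshold, of which 310 changed sign with neither value past it, 113 lost the call, 49 gained one, and 0 called values changed sign. Depth limits Gbp5 and Mx1 most, with 6 and 12 counts in the shallowest library.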
